A study of Mus musculus with 8 samples.

Results

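The transition from meiotic prophase to the haploid stage was described from wild type mouse male germ cells, by setting a round spermatid library (RO) against a pachytene spermatocyte library (PA). Of the 8 samples of the series, 4 were wild type (WT): an input and an m6A-immunoprecipitated sample for each stage. The comparison rests on the 2 WT input libraries, 1 a side, and on the 2 WT peak lists. Count ratios were taken only for the 13017 of 53465 genes with 100 or more counts in either WT input.

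All samples were labelled as spermatogenic cells from the testes of C57BL/6 mice aged 12 weeks. The other 4 samples were PA and RO of Alkbh5 knockout (KO) mice of that strain and age, which lack an eraser of N6-methyladenosine (m6A). The KO libraries share no sample with the WT comparison. Their RO over PA ratio is given beside most of the list medians and beside many of the named genes. How the cells were isolated and how many animals were pooled is not given in the sources used here. With 1 library a side there was no replicate, so no test was made. Intervals of count ratios and of the number of peaks cover counting error only. Intervals of shares take peaks or genes as independent draws. No interval covers the variation between animals or libraries.

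The WT PA input held 13147239 counts and the WT RO input 12084838, against 9921365 and 10152198 in KO PA and KO RO. The 20 most abundant genes took 16.4% of counts in WT PA and between 11.2% and 11.9% in the other 3 libraries. Malat1, a long noncoding RNA of the nucleus, had 77770 CPM (counts scaled to library size) in WT PA, 21740 in WT RO, 28017 in KO PA and 20138 in KO RO. Neat1, the scaffold RNA of nuclear paraspeckles, had 10422, 1777, 4292 and 1595 CPM in the same order. For both RNAs the WT PA library stood highest of the 4, and both PA libraries stood above both RO libraries. CPM values throughout were scaled with trimmed-mean (TMM) factors.

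Pachytene spermatocytes are in the long stage of meiotic prophase at which homologous chromosomes are fully synapsed and crossovers form, while the X and Y chromosomes are silenced. After both meiotic divisions the haploid round spermatid builds the acrosome, the flagellum and, later, compacted chromatin. Many of its mRNAs are made ahead of time and stored. m6A is a methyl mark on adenosine that is laid down by the METTL3 and METTL14 complex, removed by FTO and ALKBH5 and read by YTH-domain proteins, and it can alter the stability and translation of an mRNA.

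The labels were first checked against marker genes. Markers of round spermatids stood higher in the WT RO library. Of 18 listed, 11 had a symbol in the peak lists and 8 were measured. Of these 8, 6 were 2-fold or more higher in RO and none was lower, with a median log2 ratio of 1.24. In KO none of the 8 passed 2-fold, and their median was 0.51. Markers of pachytene spermatocytes did not stand lower in WT RO. Of 7 measured, 1 was 2-fold higher (Ovol2, a transcription factor, at 1.15) and none was 2-fold lower. Their median was -0.04 in WT and 0.09 in KO. Over all 6864 measured genes with a symbol, 9.70% were 2-fold or more higher in RO, 8.19% were 2-fold or more lower, and the median was -0.04. Over all 13017 measured genes these shares were 12.2% and 10.2%, with a median of -0.03.

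Pgk2, the testis form of a glycolytic kinase, had 111 counts in PA and 508 in RO, or 9.46 and 44.1 CPM. Its log2 ratio was 2.20, with a counting interval of 1.92 to 2.53. The uncharacterised marker Tex36 had 6.14 CPM in WT PA against 33.8, 25.6 and 23.7 in WT RO, KO PA and KO RO, so that WT PA alone was low. Acrv1, an acrosomal matrix protein, had 642 and 1563 counts, a log2 ratio of 1.31 with an interval of 1.18 to 1.45. Its 4 libraries read 54.7 (WT PA), 136 (WT RO), 51.3 (KO PA) and 77.6 CPM (KO RO), with both PA below both RO. Papolb, a testis poly(A) polymerase, had 737 and 720 counts and a log2 ratio of -0.01.

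Transcripts of the meiotic chromosome axis had similar levels in the WT PA and RO libraries. Sycp1, the transverse filament of the synaptonemal complex, had 360 CPM in WT PA and 364 in WT RO. Sycp2, an axial element protein, had 1777 and 1518 CPM, a log2 ratio of -0.23 with an interval of -0.26 to -0.20. Hspa2, a spermatocyte chaperone, and Mybl1, the A-MYB activator of pachytene genes, had log2 ratios of 0.00 and -0.04. The spermatid markers were also present in the PA library, with Acr, the acrosomal protease, at 43.9 CPM in WT PA and 73.4 in WT RO. Carried-over transcripts and cells of the other stage cannot be told apart in bulk RNA, nor can fewer cells of a type and less RNA per cell.

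**Figure D1:**
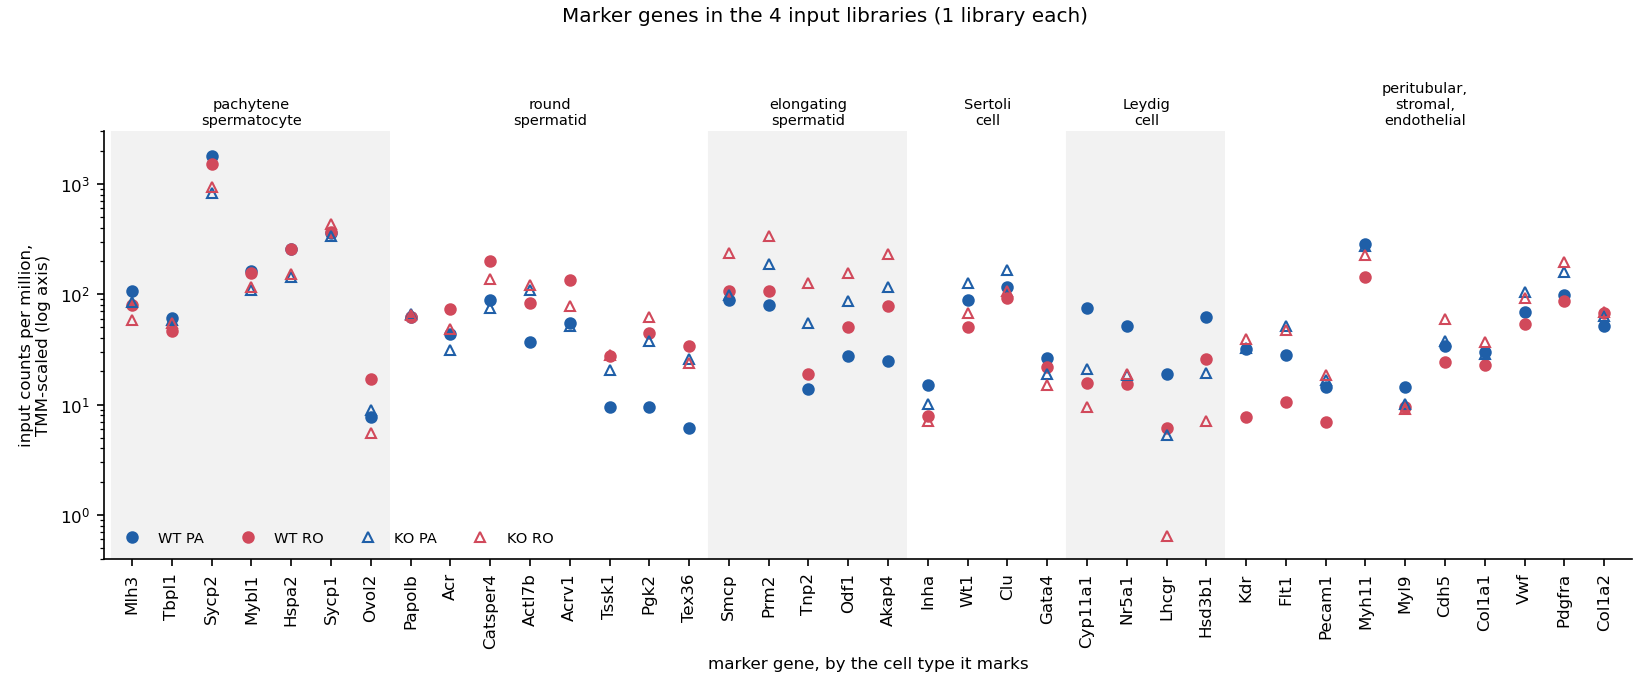
Input CPM (log axis, TMM-scaled) of marker genes in WT PA, WT RO, KO PA and KO RO, 1 library each; filled points are WT and open triangles KO. The WT PA and WT RO points of the pachytene markers other than Ovol2 lie close together, Pgk2 runs from 9.46 in WT PA to 44.1 in WT RO, and all 4 Leydig markers are highest in WT PA.

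Leydig cell markers were lower in the WT RO library, while most other somatic markers did not pass 2-fold. All 4 measured Leydig cell markers were 2-fold or more lower in RO, with a median of -1.67, and their summed level was 207 CPM in WT PA, 63.1 in WT RO, 63.7 in KO PA and 36.3 in KO RO. Cyp11a1, the first enzyme of steroid synthesis, had 876 and 181 counts in WT PA and WT RO. Of 10 peritubular, stromal and endothelial markers 3 were 2-fold lower in RO: the vascular growth factor receptors Kdr, at 372 and 89 counts, and Flt1, at 331 and 121, and the endothelial adhesion molecule Pecam1, at 170 and 80. The summed level of the 10 was 658 CPM in WT PA, 433 in WT RO, 776 in KO PA and 793 in KO RO. Among the others Col1a2, a collagen, had a ratio of 0.38, and Mrc1, the 1 macrophage marker measured, had 0.27. The 4 Sertoli cell markers had a median of -0.57 with none past 2-fold, and a summed level (all 7 with a symbol) of 258, 182, 332 and 212 CPM. None of the summed genes was at 0 in these WT libraries, except the Sertoli marker Trf, a transferrin, in both. The part of these cells in the lower genes described below was not tested.

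Genes of the sperm tail were shifted furthest toward RO among the 14 functional lists. The lists were chosen with earlier results of these data known. Some members of the tail, acrosome and energy lists, such as Catsper4, Acrv1 and Pgk2, are also among the round spermatid markers above. Of 24 measured members of the list for fibrous sheath, dense fibres, tail membrane and tail kinases, 9 were 2-fold or more higher in RO, none was 2-fold lower, and 22 had a ratio above 0. The median was 0.86 in WT and 0.45 in KO, where 2 members passed 2-fold. The lists hold genes named in the peak lists, so a member without a peak in any of the 4 lists is not counted. Of all 6864 measured named genes 9.70% were 2-fold or more higher and 8.19% lower, the shares to set beside the counts of each list.

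Akap4, the main anchoring protein of the fibrous sheath and an X-linked gene, had 25 CPM in WT PA, 78.4 in WT RO, 117 in KO PA and 232 in KO RO. The RO library was above the PA library in both genotypes, with log2 ratios of 1.64 and 0.98, but KO PA stood above WT RO. Its partner Akap3 had 573 counts in PA and 1226 in RO, a log2 ratio of 1.12, and 0.22 in KO. Catsper1 and Catsper4, pore subunits of the sperm calcium channel, had log2 ratios of 1.05 and 1.16, while Catsper2 had 3485 and 3863 counts and a ratio of 0.18. The channel's pore genes therefore did not move by one amount. The kinases Tssk1 and Tssk4 had ratios of 1.51 and 1.08, and the tektins Tekt3 and Tekt4, filament proteins of the flagellum, 1.05 and 1.03. Atp1a4, the sperm sodium pump subunit, had 1321 and 2865 counts, with a ratio of 1.14 in WT and 0.64 in KO. Fsip2, a large fibrous sheath protein, had 25403 and 36709 counts and a ratio of 0.56. Ropn1l had 1312 and 1209 counts and the lowest ratio of the list, -0.09.

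Promoters are shown because CpG content is a property of these genes that the counts do not enter. RefSeq promoters (GRCm38.p6, 250 bases before to 50 after the start) were matched for 21 of the 24 tail members. They held a median of 3 CpG dinucleotides, and 11 of 21 held fewer than 5. The 27025 genes of the promoter table had a median of 8, and 36.5% held fewer than 5. The GC box GGGCGG, read on both strands, was in 5 of the 21 (23.8%) against 38.2% of the table. The Wilson interval of the tail share, 10.6% to 45.1%, covers that of the table. The promoter table is not limited to genes measured here. Promoters of the synaptonemal complex list held a median of 18 CpG over 10 of 11 members, those of intraflagellar transport and manchette 22 over 21 of 23, and those of the axoneme 13 over 34 of 41. The GC box was in 8 of 10, 12 of 21 and 18 of 34 of these. The same reading over all genes past 2-fold was void, since 77.9% of the protein coding genes higher in RO and 79.5% of those lower had a matched promoter.

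The 120 bases upstream of the start, 5′ to 3′ on the gene's strand, are given for 4 genes higher in RO with few CpG, for 2 that hold a cAMP response element or an X-box, and for 2 genes lower in RO with a GC box. Capitals mark a GC box (GGGCGG), a cAMP response element (TGACGTCA) or an X-box (GTTGCCAT) on either strand.
Akap4 (chrX:7067395-7067514, plus strand): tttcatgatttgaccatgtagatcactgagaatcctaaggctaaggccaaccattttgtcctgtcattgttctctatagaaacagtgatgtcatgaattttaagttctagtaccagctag
Acrv1 (chr9:36693100-36693219, plus strand): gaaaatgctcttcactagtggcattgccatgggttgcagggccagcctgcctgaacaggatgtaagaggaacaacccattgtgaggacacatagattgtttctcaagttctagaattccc
Spam1 (chr6:24791068-24791187, plus strand): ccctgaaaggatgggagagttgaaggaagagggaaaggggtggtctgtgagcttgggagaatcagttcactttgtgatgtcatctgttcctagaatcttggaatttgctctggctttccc
Catsper4 (chr4:134227384-134227503, minus strand): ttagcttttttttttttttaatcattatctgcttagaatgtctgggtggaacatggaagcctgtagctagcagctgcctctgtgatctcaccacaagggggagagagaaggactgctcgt
Kif17 (chr4:138262131-138262250, plus strand): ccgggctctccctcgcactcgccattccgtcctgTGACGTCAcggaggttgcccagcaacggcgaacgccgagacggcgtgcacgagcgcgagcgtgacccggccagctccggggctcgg
Apobec4 (chr1:152750431-152750550, plus strand): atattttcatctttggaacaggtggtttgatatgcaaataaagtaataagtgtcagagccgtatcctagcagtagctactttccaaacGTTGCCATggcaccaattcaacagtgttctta
Vps54 (chr11:21238912-21239031, plus strand): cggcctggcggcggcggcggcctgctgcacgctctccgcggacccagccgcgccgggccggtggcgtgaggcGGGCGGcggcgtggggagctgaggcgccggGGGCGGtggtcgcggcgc
Kdr (chr5:75978456-75978575, minus strand): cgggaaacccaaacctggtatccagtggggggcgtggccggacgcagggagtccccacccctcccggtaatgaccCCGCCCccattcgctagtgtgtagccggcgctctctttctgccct

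The windows of Akap4, Acrv1 and Spam1 hold 0 CpG and that of Catsper4 holds 1, since these 4 were picked for few CpG. Of the genes picked for a motif, Apobec4 holds 2 and Kif17 19, both higher in RO. Kdr holds 9 and Vps54 23, both lower in RO. These windows therefore do not compare the 2 directions. The cAMP response element, bound by CREM-type factors, lies 86 bases before the start of Kif17 and was in 2.03% of all promoters of the table. The X-box, bound by RFX factors, lies 32 bases before the start of Apobec4 and was in 1.54% of all promoters. The motifs were chosen with these data known, and a match describes letters, not binding. Apobec4, a deaminase family gene, had 45 counts in PA and 191 in RO, with a log2 ratio of 2.06 in WT and -0.21 in KO.

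Genes of the acrosome and perinuclear theca lay mostly above 0. Of 23 measured, 17 had a ratio above 0, 6 were 2-fold or more higher in RO (3 of 17 with 500 or more counts) and 2 (8.70%) were lower, with a median of 0.45 in WT and 0.01 in KO. Spam1, a hyaluronidase of the sperm head, had 28.6 CPM in WT PA, 83.4 in WT RO, 47.5 in KO PA and 86.7 in KO RO. Both RO libraries lay above both PA libraries, at log2 ratios of 1.54 and 0.87. Izumo3 had 122 and 315 counts (1.38), the actin-capping subunit Capza3 104 and 221 (1.10), and the actin-like Actl7b 436 and 965 (1.17). Fam209 had 3.84 CPM in WT PA against 14.8, 55.5 and 53.4 in WT RO, KO PA and KO RO. Its ratio of 1.90 in WT therefore stood beside -0.05 in KO. Both WT libraries lay below both KO libraries, with WT PA the lowest. The 2 lower members act in vesicle traffic toward the acrosome: Vps54, a Golgi tethering subunit, at 1186 and 528 counts (-1.14), and Smap2, a clathrin-coat regulator, at 303 and 107 (-1.46). The 3 actin-related theca genes Actrt1, Actrt2 and Actrt3 fell below the count minimum, with 0, 15 and 2 counts in PA and 42, 63 and 60 in RO.

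Among genes of histone replacement 4 of 14 were 2-fold or more higher in RO and none was lower, with a median of 0.37 in WT and 0.31 in KO. Chd5, a chromodomain remodeler needed for histone removal, had 438 CPM in WT PA, 999 in WT RO, 514 in KO PA and 736 in KO RO. Its log2 ratio was 1.19 with an interval of 1.14 to 1.24, and 0.52 in KO, with both RO libraries above both PA libraries. H1fnt, a spermatid linker histone, had 119 and 381 counts (1.69), Prm3 385 and 806 (1.09) and Nutm1 351 and 717 (1.05). H1fnt was at 10.1 and 33.1 CPM in WT but 114 and 153 in KO. Prm2 and Tnp2, a protamine and a transition protein of later spermatids, had 947 and 1226 and 162 and 218 counts, with ratios of 0.40 and 0.45. In KO their ratios were 0.84 and 1.19. The bromodomain gene Brdt had a ratio of -0.25 in WT.

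Sperm energy genes had 3 of 12 members higher and none lower, with medians of 0.45 in WT and 0.09 in KO. Besides Pgk2 these were Aldoart1, a testis aldolase retrogene at 128 and 302 counts (1.25), and Cox8c, a testis subunit of cytochrome oxidase at 84 and 215 (1.36). Cox8c went the other way in KO, at -0.85. Ldhc, the germ cell lactate dehydrogenase, had 2900 and 3025 counts and a ratio of 0.09. The retrogene of aldolase shares sequence with its parent gene, so its counts are uncertain.

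Cilium genes shifted little. Of 41 axoneme genes, 3 (7.32%) were 2-fold or more higher, against 9.70% of all named genes, and none was lower. Of the 41, 31 had a ratio above 0, with medians of 0.19 in WT and 0.15 in KO. Foxj1, the master regulator of motile cilia, had 8.61, 31.3, 15.5 and 38.8 CPM in WT PA, WT RO, KO PA and KO RO. It was past 2-fold in both genotypes, at 1.84 and 1.31. Dnah3, a dynein heavy chain, had 4756 and 9455 counts (1.02), and Rsph14, a radial spoke protein, 178 and 377 (1.10). Cfap53 had the lowest ratio, -0.58. Of 23 genes of intraflagellar transport and the manchette, the microtubule sleeve of the spermatid nucleus, 2 were higher: Stk36, a kinase of motile cilia (1047 and 2215 counts, 1.11), and Kif17, a kinesin (1187 and 2338, 1.0). Kif17 sits at the threshold. Hook1, a manchette linker, had 7602 and 12093 counts and a ratio of 0.70. The median of the list was 0.15 in WT and 0.13 in KO, and none was 2-fold lower.

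**Figure D2:**
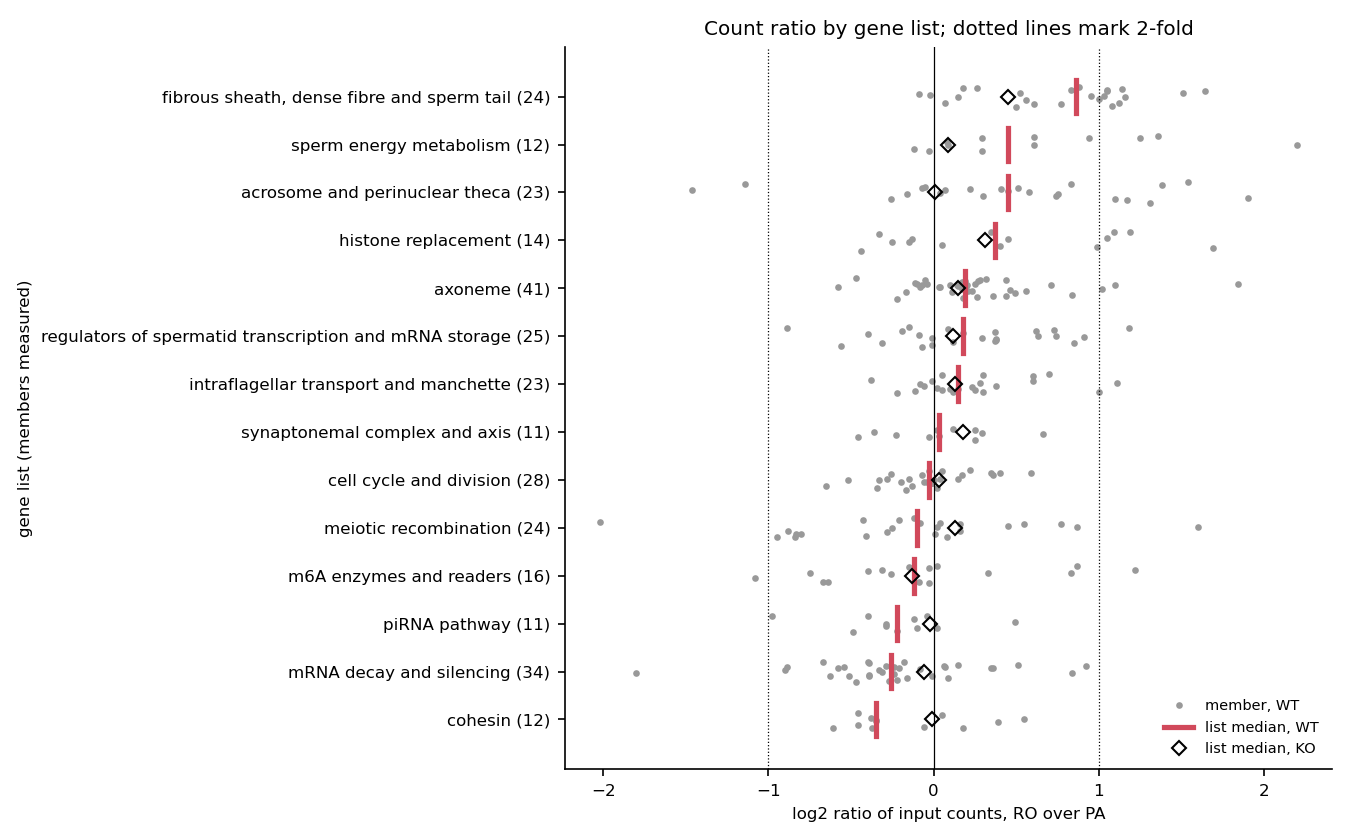
Log2 ratio of input counts, RO over PA, for each measured member of the 14 functional lists in WT (grey points), with the list median in WT (red bar) and in KO (open diamond); dotted lines mark 2-fold. Sperm tail genes have the highest median, 0.86 in WT, and cohesin genes the lowest, -0.35.

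The meiotic lists had medians near or below 0. None of 11 synaptonemal complex and axis genes passed 2-fold, with ratios from -0.46 for Syce1, a central element protein, to 0.66 for Ccdc36, an axis protein, and medians of 0.03 in WT and 0.18 in KO. None of 12 cohesin genes did, with medians of -0.35 in WT and -0.01 in KO. Among these Pds5a, a cohesin regulator, had 2509 and 1618 counts (-0.61), and the X-linked Smc1a and Stag2 each had -0.46. Of 24 recombination genes 1 was higher and 1 lower. Nbn, of the break-sensing complex, had 16.0 CPM in WT PA, 3.82 in WT RO, 20.8 in KO PA and 27.0 in KO RO, so that WT RO alone was low. H2afx, the histone variant marked at breaks, had 7.08, 21.8, 41.9 and 44.9 CPM. Both WT libraries lay below both KO libraries, with WT PA the lowest. None of 28 cell division genes and none of 11 piRNA pathway genes passed 2-fold, with medians of -0.03 and -0.22 in WT and 0.03 and -0.02 in KO. With total counts in place of TMM the cell division median turned to 0.06.

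Most measured genes of the m6A machinery stayed within 2-fold between the stages. Of 24 genes listed, 16 had a symbol and were measured. Of these 16, 1 was 2-fold higher and 1 lower, with medians of -0.12 in WT and -0.13 in KO. Rbm15b, which guides the writer complex to its sites, had 259 and 593 counts (1.22 in WT, 0.38 in KO). Mettl16, a separate m6A methyltransferase, had 546 and 253 (-1.08, -0.27). Within 2-fold, the eraser Fto had 1675 and 2926 counts (0.83), the writer subunit Virma 2191 and 1376 (-0.64) and Wtap 229 and 140 (-0.67). The nuclear reader Ythdc1 had 2854 and 3533 (0.33), and the cytoplasmic readers Ythdf1, Ythdf2 and Ythdf3 had ratios of -0.15, -0.03 and -0.40. In KO the ratio of Fto was -0.16.

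Lists of RNA regulation and chromatin had medians below 0 with few members past 2-fold. Over all named genes 52.9% had a ratio below 0, 9.70% were 2-fold or more higher and 8.19% were 2-fold or more lower. Of 34 genes of mRNA decay and silencing 25 had a ratio below 0, with medians of -0.26 in WT and -0.06 in KO, and 1 passed 2-fold: Zfp36l1, which recruits deadenylases to AU-rich mRNAs, at 1449 and 408 counts (-1.80, and -0.32 in KO). Of 76 splicing factors 63 had a ratio below 0, with 3 past 2-fold higher, 4 lower and medians of -0.30 in WT and -0.10 in KO. Hnrnpa2b1, a splicing factor also listed as an m6A reader, had 14183 and 8297 counts (-0.75, and -0.28 in KO). Rbmxl1 had 368 and 71 counts, with log2 ratios of -2.31 in WT and -0.10 in KO. Sf3b4, a U2 particle protein, had 59 and 236, with 1.99 and -0.58. Of 100 chromatin modifiers 3 were higher and 6 lower, with medians of -0.17 in WT and -0.08 in KO. Smarcd3, a remodeling subunit, had 205 and 21 counts (-3.14, and -0.54 in KO), and Arid3a 242 and 701 (1.55, and 0.02 in KO). Tet3, a DNA demethylase, had 47.4 CPM in WT PA and 19.8 in WT RO against 72.7 and 82.3 in KO. Of 69 genes of vesicle traffic and autophagy 11 (15.9%) were lower and 1 was higher, with a median of -0.29. In KO none was lower and 1 was higher, with a median of -0.05. Rab12, a small GTPase of membrane traffic, had 294 and 36 counts in WT, with ratios of -2.93 in WT and 0.00 in KO. Of 58 regulators of small GTPases 7 (12.1%) were lower and 3 (5.17%) higher.

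Zinc finger genes had 15 higher and 31 lower of 270, or 5.56% and 11.5%. The extremes were Zbtb8b, at 130 and 5 counts (-4.21, and -1.03 in KO), and Zfp819, at 9 and 106 (3.32, and 0.55 in KO). Solute carriers had 9 higher and 10 lower of 108 (8.33% and 9.26%), near the 9.70% and 8.19% of all named genes. Slc2a1, the glucose transporter of most cells, had 24.5 CPM in WT PA and 4.69 in WT RO, against 23.3 and 23.7 in KO. Slc17a7, a glutamate carrier, had 34 and 154 counts, with ratios of 2.14 in WT and 1.57 in KO. The list of ADAM metalloproteases, serine proteases and TSSK kinases split: 8 of 34 were higher and 6 lower. Testis members such as Adam39 (20 and 204 counts, 3.25), Adam6a (24 and 129, 2.36) and Adam6b (46 and 180, 1.95) stood among the higher. In KO their ratios were 0.12, 0.38 and -0.29, and KO PA lay above WT RO for all 3, so that WT PA alone was low. The median of the list was 0.43 in WT and -0.02 in KO. The secreted ADAMTS members Adamts15 (213 and 18, -3.40, and -0.95 in KO) and Adamts1 (1051 and 444, -1.21, and -0.49 in KO) stood among the lower. Adam6a and Adam6b are near copies, and their counts are uncertain.

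Among protein coding genes with at least 4 counts in the lower library, the 8 highest ratios ran from 2.86 to 4.23 and the 8 lowest from -5.59 to -3.72. Hsfy2, a heat shock factor family gene, had 13 and 275 counts, a fold of 21.6 with an interval of 12.4 to 41.0. Its CPM was 1.11 in WT PA and 23.9, 40.7 and 34.4 in WT RO, KO PA and KO RO. Cct8l1 had 0.767 CPM in WT PA against 12.6, 16.1 and 9.22. In all 8 of the highest, WT PA was the lowest of the 4 libraries. Ubqlnl, a ubiquilin-like gene, was past 2-fold in KO too, at 3.32 and 1.37. At the other end Sema3g, a secreted semaphorin, had 25 CPM in WT PA and 0.347 in WT RO, with 13.5 and 9.50 in KO. Cd93, a receptor of endothelial and myeloid cells, had 29.6 and 1.74, with 49.9 and 28.4 in KO. Il17rb, an interleukin receptor, had 49.4 and 3.56, with 16.9 and 7.40 in KO. In all 8 of the lowest, WT RO was the lowest of the 4 libraries. Both sets of 8 were picked by their WT ratio, which favours these orders.

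Of the 666 named genes 2-fold or more higher in RO, both RO libraries lay above both PA libraries for 401 (60.2%). Of the 562 lower genes both PA libraries lay above both RO libraries for 342 (60.9%). Over all 6864 named genes these orders were seen in 15.4% and 18.0%. The WT part of the order is fixed by the choice of the 666 and 562 genes, so the KO ratio is read by itself. The KO ratio was above 0 for 76.6% of the higher genes and 2-fold or more for 14.0%, against 48.1% and 4.05% of all named genes. It was below 0 for 72.8% of the lower genes and 2-fold or more lower for 13.7%, against 51.9% and 3.96%. The spread of ratios narrowed with depth: its robust SD was 1.09 for genes with 100 to 200 counts on the higher side and 0.368 for those with 3000 or more.

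Early response genes and the other abundant genes of this paragraph were singled out after their values were seen. Of 27 measured immediate early genes 13 were 2-fold or more lower in RO, none was higher, and the median was -1.0 in WT and -0.17 in KO. Fos had 374 CPM in WT PA, 158 in WT RO, 177 in KO PA and 175 in KO RO, so that WT PA alone was high. Btg2, an antiproliferative gene, had 249, 62.7, 105 and 85.6, with the same order. Lower in RO in both genotypes were Lifr, a cytokine receptor (744, 194, 336 and 188), and Abca1, a cholesterol exporter (629, 188, 328 and 192). For Lifr and Abca1 both PA libraries lay above both RO libraries. Among abundant genes higher in RO in both genotypes were Fer1l5, a ferlin (574, 1175, 460 and 724), Tsks, a substrate of TSSK kinases (85.4, 227, 96.1 and 138), and Pmfbp1, a sperm head-tail linker (94.6, 247, 196 and 282).

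Noncoding genes were more often higher in RO than coding genes. Of 218 lincRNAs 31.2% were 2-fold or more higher and 5.50% lower (median 0.55). Of 136 antisense RNAs 35.3% were higher and 3.68% lower (median 0.54). Of 6090 protein coding genes 7.36% were higher and 8.42% lower (median -0.07). A gene has a name here only through a peak, and the RO list holds more peaks in noncoding genes. Over genes named in a KO list, the lincRNA shares were 30.2% and 6.47% of 139. Without a stated strand setting, reads of an antisense RNA and its partner cannot be told apart.

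**Figure D3:**
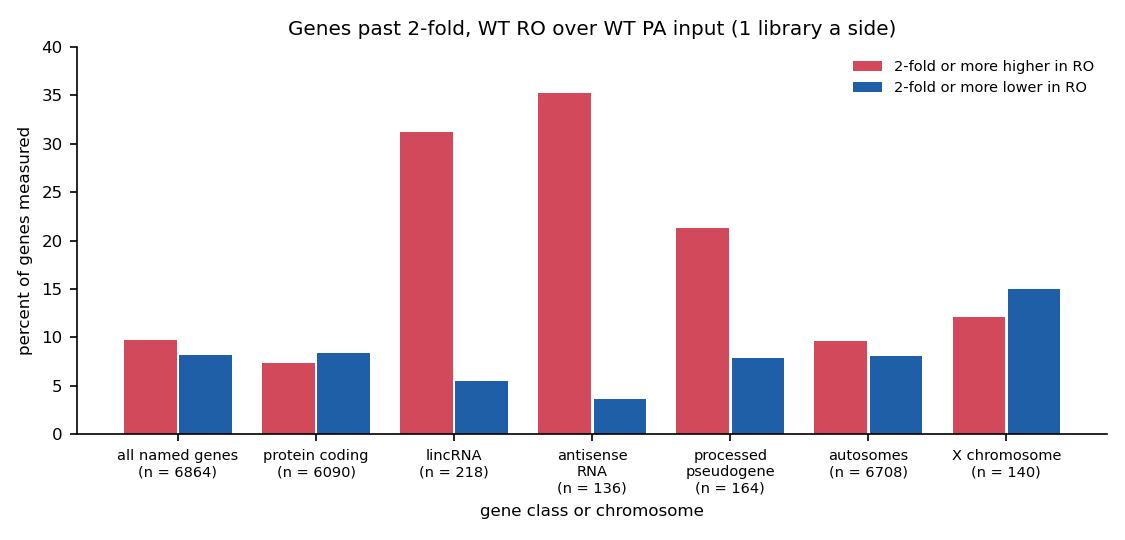
Percent of measured named genes 2-fold or more higher (red) or lower (blue) in WT RO than in WT PA, by gene class and for autosomes and the X chromosome. Antisense RNAs (35.3%) and lincRNAs (31.2%) have the tallest red bars, and X-linked genes have 12.1% higher and 15.0% lower.

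X-linked genes spread to both sides in WT, with 17 of 140 higher (12.1%), 21 lower (15.0%) and a median of -0.27. Of 6708 autosomal genes 9.59% were higher and 8.07% lower, with a median of -0.04. In KO 7.86% of the X-linked genes were higher and 3.57% lower, with a median of 0.00. The autosomal shares in KO were 3.94% and 3.98%. Besides Akap4, those higher in WT included Ercc6l, a mitotic helicase with 28 and 108 counts (1.90, and 1.12 in KO). Vsig1 was another, with 42 and 149 (1.81, and 0.31 in KO). Those lower in WT included Atrx, a chromatin remodeler with 4394 and 1738 counts (-1.31, and -0.10 in KO). The signalling ligand Efnb1 was another, with 444 and 68 (-2.64, and -0.76 in KO). Of 6 Y-linked genes Usp9y, a deubiquitinase (186 and 547 counts, 1.57), and Gm20832 (18 and 105, 2.45) were higher, and Kdm5d, a histone demethylase, had 715 and 361 (-0.95). Gm20832 belongs to a multicopy Y family, and its counts are uncertain. Of 9 mitochondrial genes 4 were higher and none was 2-fold lower, with a median of 0.99 in WT: mt-Cytb had 770 and 1741 CPM, and 766 and 982 in KO.

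The RO peak list was longer. It held 9418 peaks in 5800 genes, against 7502 in 4710 for PA, a ratio of 1.26 with an exact interval of 1.22 to 1.29. Median exonic length was 237 and 240 bases. Peaks with a false discovery rate of 0.05 or more numbered 1233 in RO and 516 in PA, and without these the ratio was 1.17. The depth of the immunoprecipitated libraries is not given in the sources used here, and its part in the number of peaks was not tested. The same limit holds for the peaks and genes counted below as found in 1 list only. Of the PA peaks 64.1% (Wilson interval 63.0% to 65.1%) overlapped an RO peak, and of the RO peaks 50.6% (49.6% to 51.6%) overlapped a PA peak.

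The classes of peaks moved away from coding sequence. Coding sequence held 56.4% of PA peaks and 49.8% of RO peaks, a difference of -6.66 percentage points (Newcombe interval -8.17 to -5.15). The 3′ UTR held 20.7% and 24.6% (3.87 points, 2.60 to 5.13), and the 5′ UTR 2.84% and 3.82% (0.983 points, 0.439 to 1.52). Among peaks without an overlapping partner the coding share differed by -9.65 points (-12.0 to -7.29). Of those, 49.8% in PA and 40.2% in RO were in coding sequence, and 22.8% and 29% in the 3′ UTR. Among overlapping peaks the coding shares were 60.1% and 59.2%, a difference of -0.977 points (-2.94 to 0.988). LincRNA peaks numbered 196 in PA and 363 in RO, and antisense RNA peaks 144 and 254.

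**Figure D4:**
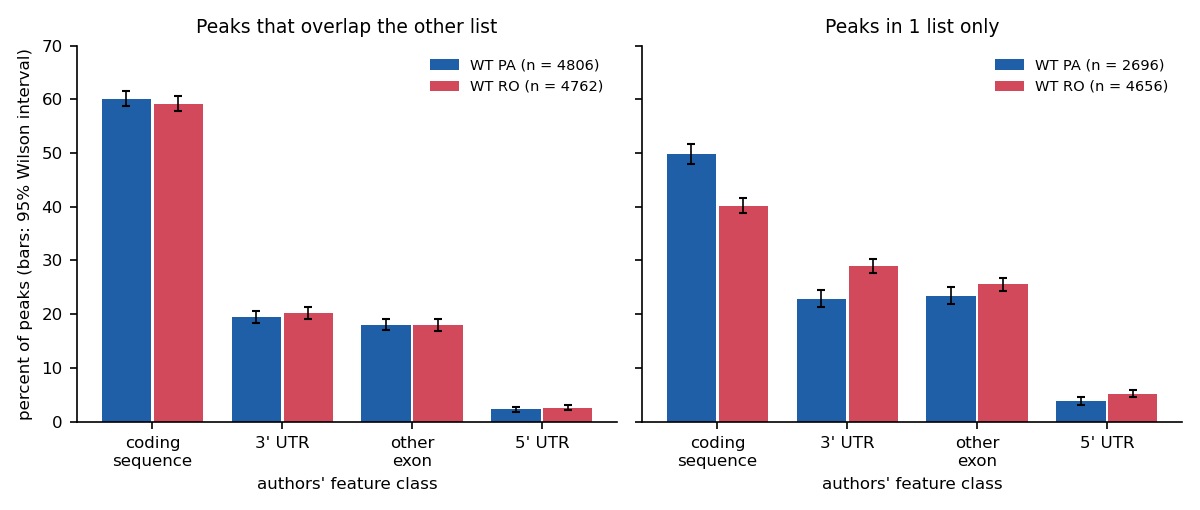
Percent of peaks in each of the authors' feature classes in the WT PA (blue) and WT RO (red) lists, for peaks that overlap a peak of the other list (left) and for those that do not (right), with 95% Wilson intervals. Coding sequence is 60.1% and 59.2% on the left and 49.8% and 40.2% on the right.

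Of 5967 named genes with 100 or more counts in both WT inputs, 3007 had a peak in both lists, 1333 (22.3%) in the RO list only and 692 (11.6%) in the PA list only. A peak in the RO list only was seen in 12.7% of the 9146 genes within 2-fold (names not required), in 17.1% of the 708 genes 2-fold or more higher in RO and in 8.58% of the 571 lower. Among the 1333 genes 121 (9.08%) were 2-fold or more higher in counts, against 6.59% of the 5967, and their median log2 ratio was 0.05. In KO, 37.9% of these 1333 genes had a peak in the RO list and 45.8% in the PA list. Of the 692 genes with a PA peak only, 74.4% had one in the KO PA list and 63.7% in the KO RO list.

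Peaks found in the RO list only were counted by list. Of 24 tail genes 9 (37.5%) had a peak in the RO list only and 1 in the PA list only. Over all 5967 named genes these shares were 22.3% and 11.6%. With 500 or more counts required in both inputs, 3 of 14 tail genes and 5 of 15 acrosome genes had a peak in RO only. The share over all named genes was then 18.3%. At 100 counts the acrosome and theca list had 8 (36.4%) with a peak in RO only and 1 in PA only, of 22. The axoneme list had 12 (29.3%) and 3 of 41, and intraflagellar transport and manchette 7 (30.4%) and 0 of 23. The list of ADAM, serine protease and TSSK genes had 11 and 2 of 24, and solute carriers 30 and 13 of 95. Histone replacement genes had 0 and 1 of 14, though 4 of them were higher in counts. Cohesin genes had 2 and 3 of 12, chromatin modifiers 16 and 11 of 95, and zinc finger genes 33 and 13 of 224. Mitochondrial respiratory chain genes had 1 and 5 of 7.

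**Figure D5:**
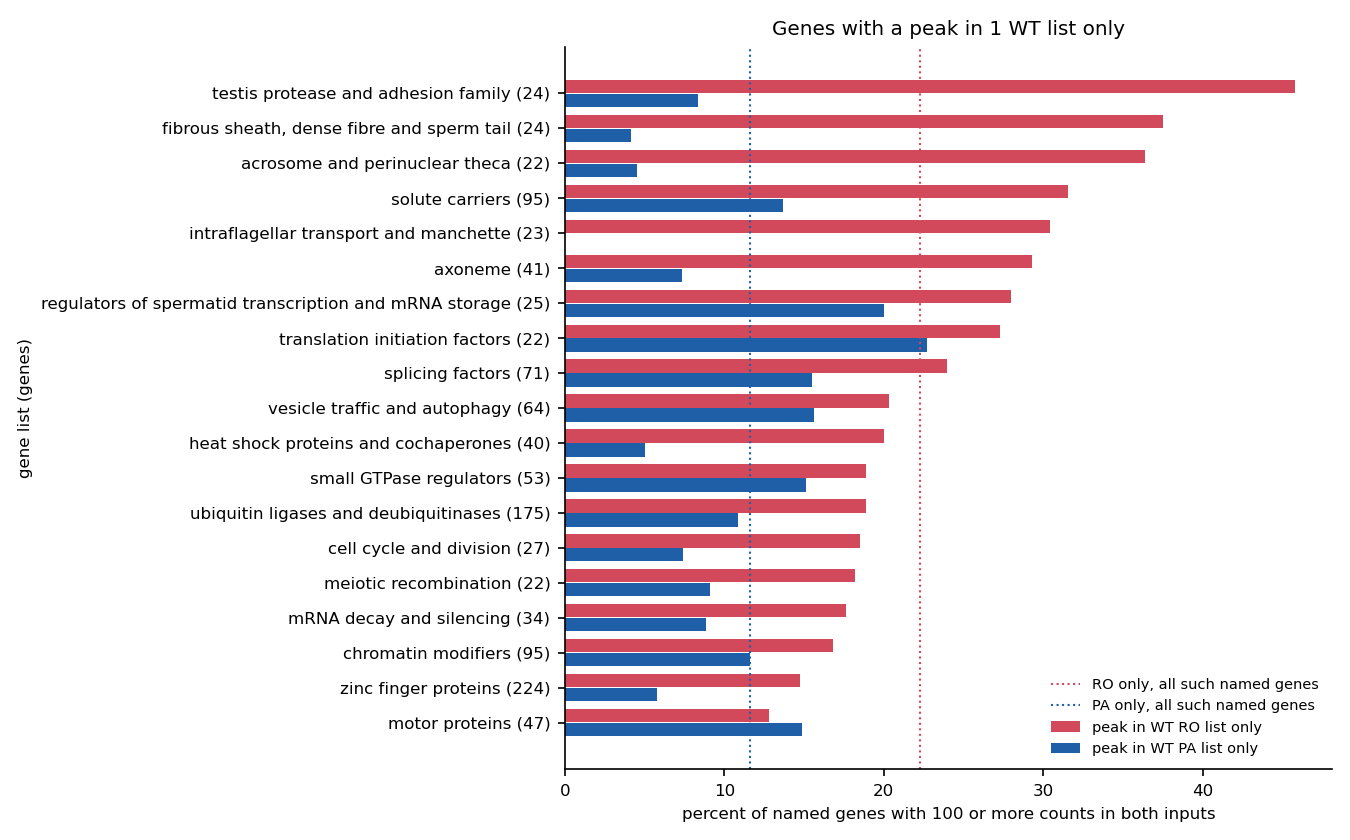
Percent of the named genes of each list with 100 or more counts in both WT inputs that have a peak in the WT RO list only (red) or the WT PA list only (blue); dotted lines give the same over all 5967 such genes, 22.3% and 11.6%. The protease and TSSK list (45.8%), the tail list (37.5%) and the acrosome list (36.4%) have the longest red bars.

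Some of these peaks lie in the genes described above, with positions on mm10. Akap4 had no PA peak and 1 RO peak in its coding sequence at chrX:7076824-7077004 (fold 4.71, the authors' enrichment over input, which describes a peak within its own list). Akap3 had no PA peak and 2 in RO, the stronger at chr6:126866493-126866731 (fold 32.3). Odf1, a dense fibre protein with 321 and 582 counts (0.88), had none and 2, with a 5′ UTR peak at chr15:38219293-38219531 (fold 12.2). Acrv1 had none and 1, at chr9:36693220-36694246 (fold 15.5). Fsip2 had 9 PA peaks and 19 RO peaks, and Brca1, a repair gene with 2158 and 3860 counts (0.87), 2 and 5, all in coding sequence. Foxj1 had 1 in each list, in its 3′ UTR from position 116331479 of chromosome 11, with folds of 22.1 in PA and 170 in RO.

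Synaptonemal complex genes had a peak in the RO list only for 3 (27.3%) and in the PA list only for 1 of 11. Recombination genes had 4 (18.2%) and 2 of 22, and cell division genes 5 (18.5%) and 2 of 27. These RO shares lie near the 22.3% of all named genes. Genes with more peaks in the PA list are given next, chosen after their values were seen. Smc1a, the cohesin ATPase, had 3 PA peaks and none in RO, with 1436 and 1026 counts. Eif3a, an initiation factor that can bind m6A, had 3 and none, with 11054 and 8771 counts. Rad50, of the break-sensing complex, had 2 and none, with 1333 and 748 counts. Nkapl and Spz1, spermatogenic transcription regulators, each had 2 PA peaks and none in RO although both had more counts in RO (522 and 924, and 290 and 535). Chd5 had 2 PA peaks and 1 RO peak; the shared one lies in its 3′ UTR, at chr4:152387020-152387379 in the RO list (fold 25.6).

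The strongest RO peaks in genes with no PA peak were in Rsph3b, a radial spoke gene (chr17:6911315-6941687, 3 blocks, coding, fold 334), and Slc27a1, a fatty acid transporter (chr8:71585956-71586255, exon, fold 301). Csnka2ip (chr16:64479354-64480277, coding, fold 218) and Aqp7, the aquaglyceroporin of spermatids and sperm (chr4:41034116-41034826, coding, fold 214), came next. Slc27a1 had 2361 and 2758 counts and Aqp7 366 and 909, a log2 ratio of 1.33. Zswim6 (fold 195) and Iba57 (fold 163), an iron-sulfur cluster factor, completed the 6. Rsph3b has a near-identical copy, Rsph3a, so its reads may be shared. All but Rsph3b also had a peak in the KO RO list, and peaks of these genes in the KO PA list are not given here. Of all 1333 genes with an RO peak only, 37.9% had one in the KO RO list and 45.8% in the KO PA list.

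The strongest PA peaks in genes with no RO peak were in Nfe2l2, the oxidative stress regulator (chr2:75676619-75676917, coding, fold 131), Ankrd24 (chr10:81642734-81643422, exon, fold 125) and Pik3r1, a PI3-kinase subunit (chr13:101684132-101684582, 3′ UTR, fold 108). Sox5, a transcription factor with 894 and 1457 counts, had a 3′ UTR peak at chr6:143833037-143833366 (fold 99.1). Plekhg3 and Ptprb, an endothelial phosphatase, each had a peak with fold 92.8, and their counts were 713 and 235, and 776 and 287. All 6 genes also had a peak in the KO PA list, and their peaks in the KO RO list are not given here. Of all 692 genes with a PA peak only, 74.4% had one in the KO PA list and 63.7% in the KO RO list.

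The overlapping peaks with the highest product of both folds lay in 4 genes within 2-fold in counts. These were Tcf20, a nuclear cofactor (coding, folds 332 in PA and 307 in RO, 3166 and 2906 counts), Tnrc6c, a scaffold of microRNA silencing (exon, 69.2 and 1290, 5374 and 4530 counts), Cic, a repressor (coding, 177 and 465, 3107 and 3145 counts), and Togaram1, a ciliary microtubule protein (coding, 408 and 177, 2912 and 3715 counts). Their log2 count ratios ran from -0.22 to 0.38.

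Within the 3007 genes with a peak in both lists, 2735 had an overlapping pair and 272 had none. A 3′ UTR peak was in the RO list only for 304 of them and in the PA list only for 134, whereas a coding peak was in the RO list only for 124 and in the PA list only for 131. Ythdf1, a cytoplasmic m6A reader, was one of the 304. It had 2 coding peaks in PA and 3 in RO, with a 3′ UTR peak in RO alone at chr2:180904467-180904646 (fold 18.8, 248 and 219 counts).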

How the data were processed

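Total RNA was fragmented, and m6A-containing fragments were immunoprecipitated beside an input. Gene counts of the 4 inputs were used as deposited by the authors. The deposited peak lists, 1 per genotype and stage, give a fold ratio over input, a p-value score and log10 false discovery rates. Per the submitters' processing notes, cutadapt 2.5, HISAT2 2.1.0, HOMER 4.10.4 and mm10 were used. Their roles, the peak caller and the strand setting are not given in the sources used here.

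Symbols came from the peak lists alone (8733 of 53465 genes), so a named gene has a peak in some list. Counts were scaled by TMM in edgeR 4.0.16 over the 4 inputs, with a prior count of 2 in log2 ratios. Genes needed 100 counts in either WT input, and a gene 2-fold apart or more was counted as higher or lower. Ratio intervals are exact binomial at 95%, and shares have Wilson intervals. Peaks overlapped when they shared 1 exonic base on 1 strand. The scripts were tested on simulated data.

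The rule for named genes took up to 4 members of each list (those furthest from 0 in the direction most members took, and the furthest the other way) and every marker. It also took the 8 highest and 8 lowest ratios among coding genes with 4 or more counts in the lower library. For peaks it took the 6 highest folds of each WT list at a false discovery rate under 0.05, in genes with 100 counts in both inputs and no peak in the other list, and the 4 shared peaks with the highest product of folds. Other genes named were chosen after their values were seen. Members, lists and motifs were chosen with earlier results of these data known. Alternatives were scaling, prior count, count minimum, fold, overlap rule and false discovery rate.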

Additional observations from a re-analysis of the deposited data

Results flagged for a closer look

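Among 157 named genes, 4 were 2-fold or more apart between the stages in opposite directions in WT and KO. Each rests on 1 library per group, and the difference between the genotypes was not tested. Zbtb14, a zinc finger repressor, had a log2 ratio of RO over PA of -3.98 in WT (143 and 7 counts) and 1.73 in KO (21 and 75). Slc16a13, a monocarboxylate transporter family member, had -2.12 (100 and 21) and 1.81 (9 and 37). Ikbip had -3.72 (119 and 7) and 1.27 (53 and 132). Zfp78, a zinc finger gene, had 2.86 (18 and 141) and -1.18 (45 and 19). All 4 had fewer than 150 counts in every library.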

How the results depend on the processing

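Of 124 alternative values, 99 stayed within 1.5 times the count or within the 95% interval of the value they were set against, and 25 moved. The interval of a list median was taken over the members of the list, not over libraries. The medians 2-fold or more from 0 were those of the round spermatid and Leydig markers. Neither changed sign, and the scaling shift of 0.09 could not have turned them. However, 3 medians nearer 0 did change sign. With total counts these were those of the cell division and pachytene marker lists (-0.04 to 0.06 for the latter). With 500 counts it was that of Y-linked genes (0.46 to -0.11). Genes higher in RO numbered 6733 with a minimum of 1 count, 376 with 500, 272 at 4-fold and 509 among genes named in a KO list; genes lower numbered 6166, 295, 272 and 470. With total counts, which shifted the median of all genes by 0.09, the medians of the cell division and axoneme lists were 0.06 and 0.29. With 500 counts the acrosome list had 3 members higher, and 3 of 14 tail and 5 of 15 acrosome genes (500 in both inputs) had a peak in RO only. The peak ratio was 1.17 at a false discovery rate under 0.05 and 1.36 at a fold of 5 or more. Overlapping PA peaks were 47.4% with 50% reciprocal overlap, 81.9% by gene and 66.8% at a false discovery rate under 0.05, and RO peaks 37.7%, 71.5% and 56.0%. Genes with a peak in RO only were 18.3% with 500 counts and 18.9% at that rate, and in PA only 8.93% and 10.5%. TMM from the WT libraries alone and the restriction to genes named in a KO list were chosen after seeing the data. No paired analysis was possible because each group has 1 library and the labels carry no replicate numbers. With 1 library a side, ratios of genes near 100 counts are the least precise.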
